A study of Mus musculus with 8 samples.

Results

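Microglia were examined as the cells with a count in at least 4 of 6 genes, C1qa, C1qb, C1qc, Cx3cr1, P2ry12 and Csf1r, in single-cell RNA sequencing of mouse frontal isocortex at postnatal day 7. The rule found 143 of 22876 cells, 86 of 11494 in the D1Tom sort and 57 of 11382 in the GTE sort. The D1Tom controls held 20 and 19 of these cells and the D1Tom cKO libraries 6 and 41. The GTE controls held 8 and 10 and the GTE cKO libraries 30 and 9. The sorts are described apart throughout, and values are given in the order control 1, control 2, cKO 1, cKO 2.

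The study compared mice in which floxed Foxp2 was deleted by Emx1-Cre with littermates that carried the floxed alleles and no Cre. The D1Tom controls were labelled Drd1a-tdTomato with Foxp2 flox/flox, and the D1Tom cKO animals carried Emx1-Cre in addition. The GTE controls carried golli-τ-eGFP (golli-T-eGFP in the genotype labels) with Foxp2 flox/flox, and the GTE cKO animals carried Emx1-Cre as well. Each group had 2 libraries, and all animals, controls included, carried the floxed alleles and a reporter transgene. Live single cells were taken by flow cytometry on a reporter that the Drd1a promoter (D1Tom) or the golli promoter of the Mbp gene (GTE) drives, and neither is a microglial reporter. Emx1-Cre acts in the dorsal telencephalic lineage, from which microglia do not arise, so the Foxp2 deletion was directed at the neurons and glia around them. In D1Tom cKO 2 was labelled male and the other 3 libraries female. In GTE cKO 2 was labelled female and the other 3 male. The protocol aimed at 1000 cells a sample, and the tables held 1440 to 3948 cells a library. Total counts ran from 27323298 to 36379194 a library in D1Tom and from 4878370 to 6092396 in GTE. Nothing in the labels says whether each library came from a single animal. p-values between libraries therefore measure only the spread between these libraries.

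Microglia are the resident macrophages of brain tissue. They arise from yolk sac progenitors, depend on the receptor encoded by Csf1r, and in the first postnatal weeks divide, clear dying cells and remodel synapses. C1qa, C1qb and C1qc encode the chains of the complement component C1q, Cx3cr1 encodes the receptor for the neuronal chemokine fractalkine, and P2ry12 encodes a receptor that steers microglial processes toward nucleotides. The meninges, perivascular spaces and choroid plexus hold further macrophages, called border-associated macrophages, which share C1q and Csf1r with microglia and are marked by Mrc1, Pf4, Lyve1 and Cd163.

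Stretches of 250 bases upstream of 3 start sites are shown because their genes carry the main pattern below. C1qb chose the cells, Trem2 was high in them without being in the rule, and Pf4 set apart a group among them. The sequences are RefSeq's for GRCm38.p6, read 5′ to 3′ along the gene, and none overlapped an exon of the GENCODE annotation. Capitals mark GAGGAA or its reverse complement TTCCTC, the purine-rich core that PU.1, the myeloid factor encoded by Spi1, is known to bind. They lie at chr4:136886201-136886450 on the minus strand for C1qb, at chr17:48346151-48346400 on the plus strand for Trem2 and at chr5:90772185-90772434 on the plus strand for Pf4.
C1qb: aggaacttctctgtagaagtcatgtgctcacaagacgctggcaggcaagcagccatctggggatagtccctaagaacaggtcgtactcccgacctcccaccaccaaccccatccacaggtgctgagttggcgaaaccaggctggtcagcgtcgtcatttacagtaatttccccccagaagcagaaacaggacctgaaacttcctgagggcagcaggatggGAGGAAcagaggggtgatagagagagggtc
Trem2: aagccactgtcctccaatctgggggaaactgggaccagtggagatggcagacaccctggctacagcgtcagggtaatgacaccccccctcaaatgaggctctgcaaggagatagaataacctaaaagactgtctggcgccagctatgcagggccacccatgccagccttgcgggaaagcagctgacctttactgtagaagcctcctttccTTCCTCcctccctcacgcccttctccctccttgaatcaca
Pf4: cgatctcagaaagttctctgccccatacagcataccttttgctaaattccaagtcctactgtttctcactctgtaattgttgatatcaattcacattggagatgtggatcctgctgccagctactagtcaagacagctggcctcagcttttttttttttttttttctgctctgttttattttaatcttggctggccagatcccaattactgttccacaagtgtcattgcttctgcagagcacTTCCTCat
Each of the 3 windows held 1 match, beginning 30 bases before the start in C1qb, 40 in Trem2 and 8 in Pf4. Of the 4 rule genes with a window, C1qb and C1qc held a match and Cx3cr1 and P2ry12 held none. Of the other macrophage genes searched, Mrc1 held 3 matches, F13a1 held 1 and Ms4a7 held none. Annotated exons overlapped the C1qc, Cx3cr1, P2ry12 and Mrc1 windows. Both strands were searched, and 23.25% of all 32851 windows of this length held a match, so the letters are common and a match is a description only. Spi1 itself had a count in 67 of the 86 D1Tom microglia and in 31 of the 57 GTE microglia.

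The cells chosen by the rule carried the myeloid genes that the rule did not use. In D1Tom the microglia had a median of 6 rule genes and 10919.5 counts per cell, against 8448 counts in the other cells. In GTE they had a median of 6 rule genes and 4590 counts, against 1296 in the other cells. All levels below are CPM, a gene's counts summed over the microglia of a library and scaled to the library's total over those cells. A single count was 35.0 CPM in GTE control 1 and 34.1 CPM in GTE control 2, so low GTE values rest on few counts. Csf1r was at 1080, 301, 366 and 432 CPM in D1Tom and at 280, 444, 336 and 473 CPM in GTE. It was at most 0.706 CPM in the other cells of any D1Tom library and at most 1.65 CPM in GTE. C1qc, the highest of the 6 in D1Tom, was at 4017, 1955, 2224 and 2057 CPM there and at 1367, 2935, 3356 and 2592 CPM in GTE. P2ry12 was at 1029, 706, 638 and 370 CPM in D1Tom and at 1927, 3583, 3635 and 2098 CPM in GTE. These levels describe the rule, which required counts of such genes, and support nothing by themselves.

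The remaining rule genes varied between libraries within a group. C1qa was at 2313, 1269, 985 and 1354 CPM in D1Tom and at 666, 921, 1570 and 1625 CPM in GTE. C1qb was at 3646, 1518, 1745 and 1810 CPM in D1Tom and at 806, 1809, 2077 and 1337 CPM in GTE. Cx3cr1 was at 576, 402, 347 and 552 CPM in D1Tom and at 140, 1433, 849 and 617 CPM in GTE. D1Tom control 1 was the highest D1Tom library and GTE control 1 the lowest GTE library for all 3 genes.

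**Figure D1:**
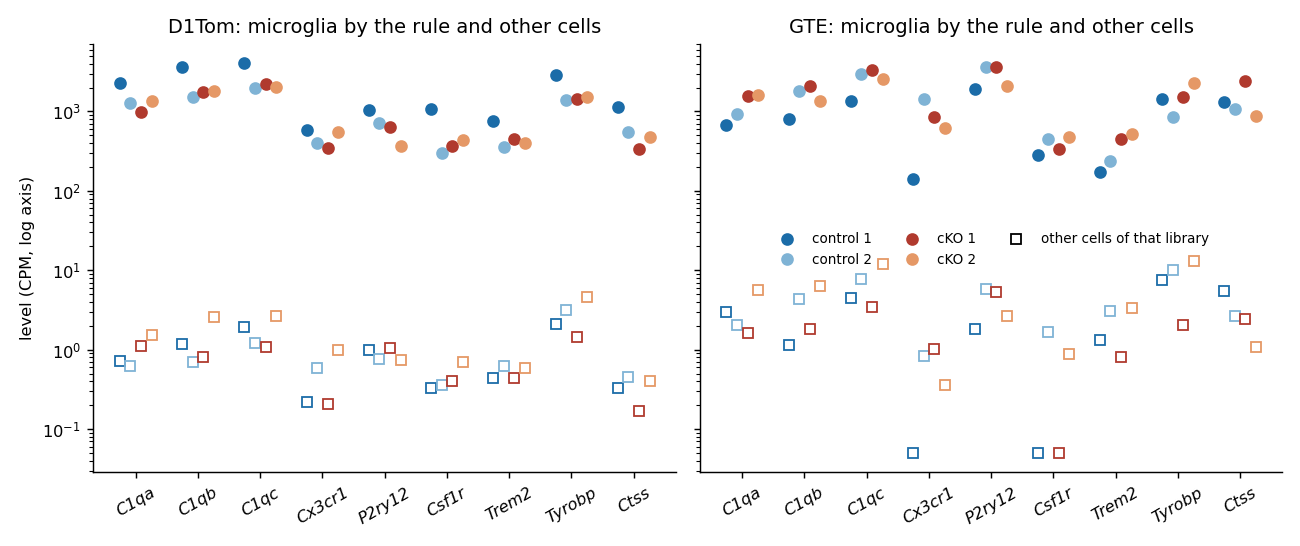
Level in CPM on a log axis of the 6 rule genes and of Trem2, Tyrobp and Ctss in the microglia of each library (filled circles) and in the other cells of that library (open squares), with values of 0 drawn at 0.05 CPM. Every filled circle, the lowest at 140 CPM for Cx3cr1 in GTE control 1, lies above every open square, the highest at 13.02 CPM for Tyrobp in GTE cKO 2.

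No gap separated the cells inside the rule from those outside. In D1Tom 24 cells had a count in 3 rule genes and stayed outside, with a median of 512 CPM summed over the 6 genes, and 14 cells with 4 genes came in with a median of 921 CPM. The 48 D1Tom cells with all 6 genes had a median of 12221 CPM. In GTE 23 cells with 3 genes stayed outside at a median of 3497 CPM, 13 cells with 4 genes came in at 3925 CPM, and the 30 cells with all 6 had 13101 CPM. These values come from the genes that chose the cells.

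Among the genes found in at least 50% of the microglia of a sort, the 20 with the highest ratio of mean CPM over the other cells were named. The 6 rule genes were among these 20 in both sorts. In D1Tom the others were Ctss, Gpr34, P2ry6, Siglech, Fcrls, Ccl12, Ly86, Clec4a2, Trem2, Mrc1, Tnfaip8l2, Pld4, Cd53 and Adgre1. In GTE they included P2ry6, Cd53, Fcrls, Ctss, Tmem119, Gpr34, Ly86, Laptm5, Fcer1g, Ccl12, Ltc4s, Tyrobp and Rnase4. Ctss, which encodes the lysosomal protease cathepsin S, led in D1Tom with a mean of 623 CPM against 0.340 CPM in the other cells. It had a count in 72 of 86 microglia and in 0.351% of the other D1Tom cells. P2ry6, a receptor for uridine nucleotides that triggers phagocytosis, led in GTE with 272 CPM against 0.0516 CPM and a count in 29 of 57 microglia. Mrc1, listed as a border-associated macrophage gene, was among the D1Tom leaders with 287 CPM and a count in 53 of 86 cells.

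Homeostatic microglial genes were broadly present. Of 20 listed genes, 19 had a count in at least 1 in 5 D1Tom microglia and 16 in GTE, and none was at 0 in either sort. Tyrobp, the signalling adaptor of Trem2, was at 2845, 1395, 1445 and 1505 CPM in D1Tom and at 1437, 853, 1539 and 2263 CPM in GTE. Tmem119, a surface protein that marks parenchymal microglia, was at 330, 140, 225 and 151 CPM in D1Tom and at 105, 171, 380 and 247 CPM in GTE. It was found in 37 of 86 D1Tom and 29 of 57 GTE microglia. Sall1, a transcription factor gene of microglial identity, was at 61.3, 49.0, 65.7 and 96.0 CPM in D1Tom and at 0, 34.1, 114 and 41.1 CPM in GTE.

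Gpr34, a lysophospholipid receptor, was at 685, 409, 310 and 449 CPM in D1Tom and at 350, 2048, 2229 and 679 CPM in GTE. Siglech, a sialic acid receptor, was at 296, 178, 159 and 137 CPM in D1Tom and at 175, 341, 595 and 617 CPM in GTE. Control 1 was the highest D1Tom library for both genes and the lowest GTE library for both. Fcer1g, the signalling chain shared by Fc receptors, was at 2899, 1196, 1764 and 1423 CPM in D1Tom and at 1086, 1297, 2229 and 1810 CPM in GTE. Aif1, which encodes the microglial protein Iba1, was at 732, 472, 666 and 482 CPM in D1Tom and at 280, 341, 532 and 453 CPM in GTE. Fcrls was found in 68 of 86 D1Tom and 42 of 57 GTE microglia. Slc2a5, a fructose transporter gene, was rare, with a count in 15 D1Tom and 2 GTE microglia.

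Most listed myeloid transcription factors were counted too. Of 16 listed, 12 had a count in at least 1 in 5 D1Tom microglia and 7 in GTE. Spi1 was at 470, 175, 263 and 247 CPM in D1Tom and at 35.0, 136, 266 and 288 CPM in GTE. Irf8, a factor needed for microglial development, was at 204, 63.0, 103 and 108 CPM in D1Tom and at 140, 171, 228 and 247 CPM in GTE. Maf was found in 80 of 86 D1Tom and 37 of 57 GTE microglia, and Runx1 in 27 and 6. Mef2c was common in all cells, with a count in 85.7% of the other D1Tom cells against 95.3% of the microglia.

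Among phagocytic and lysosomal genes, 24 of 31 had a count in at least 1 in 5 D1Tom microglia and 19 in GTE. Lgmn, a lysosomal protease gene, was at 2174, 1060, 610 and 866 CPM in D1Tom and at 1682, 2969, 4977 and 1029 CPM in GTE. Ctsb, which encodes cathepsin B, was at 1993, 752, 976 and 943 CPM in D1Tom and at 981, 956, 1912 and 1234 CPM in GTE. Cd68, a lysosomal membrane protein of phagocytes, was at 450, 203, 159 and 190 CPM in D1Tom and at 35.0, 68.2, 304 and 123 CPM in GTE. D1Tom control 1 and GTE cKO 1 were the highest libraries of their sorts for all 3 genes. Of the bridging and receptor genes for dying cells, Gas6 had a count in 69 D1Tom and 33 GTE microglia, Mertk in 22 and 11, and Axl in 16 and 1. Axl was not higher than in the other cells throughout, at 0 to 37.5 CPM in D1Tom microglia against 21.8 to 36.1 CPM in the other cells.

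Further receptors for complement, nucleotides and chemokines were counted in a part of the cells. C3ar1 had a count in 35 of 86 D1Tom and 14 of 57 GTE microglia, and C5ar1 in 21 and 3. Itgam, a subunit of the complement receptor CR3 that takes part in synapse pruning, was at 68.1, 38.5, 84.5 and 45.6 CPM in D1Tom and at 70.1, 375, 222 and 123 CPM in GTE. C3, whose cleaved product is the ligand of that receptor, had no count in the microglia of either sort. A count of 0 allows a share of up to 3.49% of the 86 D1Tom and 5.26% of the 57 GTE cells, and this and other intervals cover counting error only. Of the purinergic and chemokine receptors, P2ry6 was at 371, 129, 159 and 130 CPM in D1Tom and at 35.0, 478, 329 and 247 CPM in GTE. P2rx4 was found in 33 and 6 microglia. Tgfbr1, a receptor chain for the TGF-beta that maintains microglial identity, was found in 52 and 31 microglia and its ligand Tgfb1 in 55 and 18.

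Of 22 genes listed for the microglia that gather in developing white matter or disease, 12 had a count in at least 1 in 5 D1Tom microglia and 6 in GTE. The list summed to 13264, 4273, 5321 and 6555 CPM in D1Tom, with Apoe the highest member in each library, against 2737 to 6017 CPM in the other cells. Cd63, a tetraspanin gene, had a count in 74 D1Tom and 31 GTE microglia, and Lpl, which encodes lipoprotein lipase, in 37 and 15. Other members were rare. Spp1, which encodes osteopontin and leads that state, had a count in 5 D1Tom and 1 GTE microglia. Gpnmb had a count in 1 and 0, Itgax in 2 and 0, Clec7a in 5 and 0, and Cst7 in 2 and 1. Class II antigen presentation genes were likewise low, with H2-Aa in 2 and H2-Ab1 in 8 D1Tom microglia and both listed at 0 in GTE. Class I was present, and B2m, its light chain, was at 2623, 1392, 1858 and 1380 CPM in D1Tom and at 2698, 1706, 5192 and 1296 CPM in GTE. Interferon response genes were uneven. Bst2 had a count in 51 of the 86 D1Tom microglia, while Ifit1, Isg15 and Rsad2 had counts in 2, 4 and 1 D1Tom microglia and in none in GTE.

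Markers of blood leukocytes were at or near 0. Of 20 listed genes in the D1Tom table, 12 had no count in any microglia, among them Ly6c2, S100a8, S100a9, Cd3e and Cd79a. Ccr2, which monocytes carry and microglia lack, had a count in 1 of 86 cells. In GTE, 5 of the 9 genes analysed had no count. The summed level of the list was 444 to 1359 CPM in D1Tom and 350 to 678 CPM in GTE, and in D1Tom it lay mostly in Lyz2, Cd52 and Ptprc, which tissue macrophages also express. Lyz2 was at 991, 206, 206 and 326 CPM in D1Tom and at 0, 102, 260 and 103 CPM in GTE.

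In D1Tom the rule took in a second kind of macrophage. Of the 86 cells, 64 had a count in 0 to 3 of 15 border-associated macrophage genes, 1 in 4 of them and 21 in 5 to 13. A minimum of 4, set after these values were seen, gave 22 macrophage-marker cells. They numbered 7 of the 20 cells of control 1, 4 of the 19 of control 2, 1 of the 6 of cKO 1 and 10 of the 41 of cKO 2. In GTE 2 of 57 microglia passed the same minimum, both in cKO 1. The genes that chose them are a description: Pf4, the chemokine platelet factor 4, was at 5264 CPM in the D1Tom macrophage-marker cells and at 11.9 CPM in the other 64. Lyve1, F13a1, Ms4a7 and Cd163 had counts in 17, 19, 21 and 14 of the 22 cells and in none of the other 64. These are single cells chosen within the same table, so no test was made.

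Genes outside the macrophage list differed too, and P2ry12 among them belongs to the rule. Tmem119 had a count in 1 of the 22 and in 36 of the other 64, at 3.82 against 265 CPM. P2ry12 was at 87.9 against 836 CPM. Sall1, Siglech, Olfml3, Crybb1 and the tetraspanin gene Cd9 were also lower in the macrophage-marker cells in every D1Tom library, though cKO 1 held only 1 such cell. On the higher side, Apoe, which carries lipids, was at 15308 against 1769 CPM. Igf1, an insulin-like growth factor, was at 386 against 15.5 CPM, and the scavenger receptor genes Cd36 and Stab1 were at 191 against 0 and at 539 against 36.9 CPM. By library, Igf1 and Cd36 were higher in all 4 and Stab1 in 3 of the 4.

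The chemokine genes Ccl7 and Ccl24 were at 424 and 268 CPM in the macrophage-marker cells against 3.57 and 4.76 CPM. Lgals1, a galectin gene, was at 998 against 103 CPM, and Ifitm2 at 440 against 55.9 CPM. C1q and Csf1r belong to the rule that chose both kinds of cell, so similar levels of them are a description only. C1qb was at 2076 CPM in the 22 and 2260 CPM in the other 64. Csf1r was at 696 against 523 CPM and Tyrobp at 1854 against 1819 CPM. After thinning every cell to 1000 counts, Pf4 was seen in 95.5% of the 22 cells, in 0% of the other 64 and in 0.101% of astrocyte-class cells. Before thinning, 3 of the 64 had a Pf4 count. P2ry12 was seen after thinning in 4.55% of the 22 and 46.9% of the 64. Pf4 helped to choose the 22 cells and P2ry12 is a rule gene, so these shares are a description only. Cells of the 2 kinds had median depths of 8416 and 12025 counts.

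**Figure D2:**
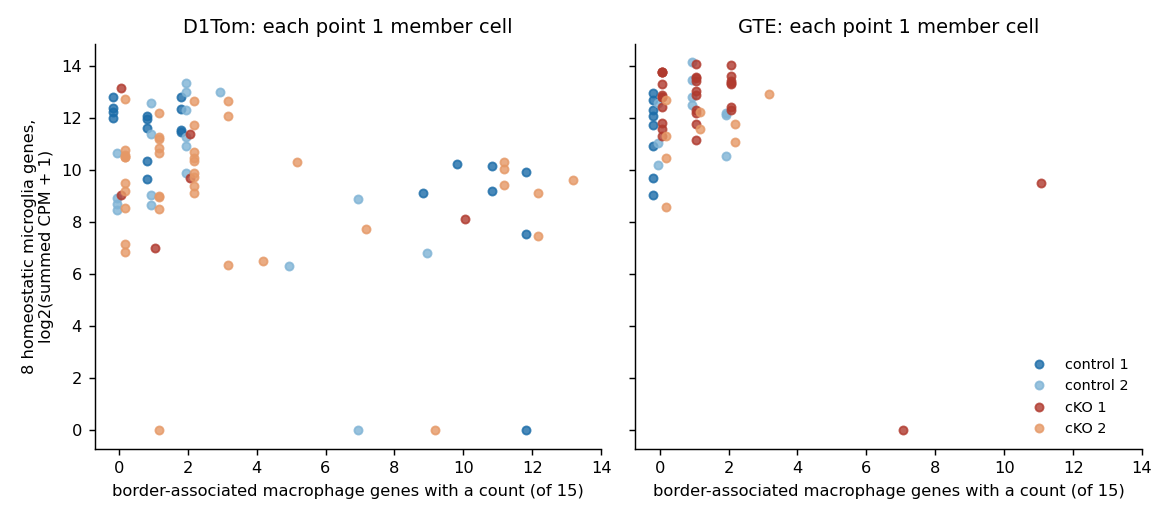
Number of the 15 border-associated macrophage genes with a count (x axis) and log2 of the summed CPM plus 1 of Tmem119, Siglech, P2ry12, P2ry13, Sall1, Gpr34, Crybb1 and Selplg (y axis) in each microglia cell, coloured by library. In D1Tom 22 cells stand at 4 genes or more with a median of 516 CPM of the 8 homeostatic genes, against 1635 CPM in the other 64, and in GTE 2 cells do.

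Some microglia carried counts of most of a set of 8 mitotic genes. A count in at least 5 of 8 mitotic genes (Mki67, Top2a, Ccnb1, Ccnb2, Ccna2, Cdk1, Birc5 and Cenpf), a minimum set after the values were seen, was met by 16 D1Tom and 9 GTE microglia. No D1Tom cell had 4 of these genes and 3 had 3 of them, while 2 GTE cells had 4. The 16 D1Tom cells made up 15%, 15.8%, 16.7% and 21.9% of the microglia of control 1, control 2, cKO 1 and cKO 2. Of the 16, 9 also met another class, 1, 1, 0 and 7 by library, and the 7 that met none were 2, 2, 1 and 2. All D1Tom microglia that met no other class numbered 17, 6, 1 and 9 in these libraries. The 9 GTE cells, none of which met another class, made up 12.5%, 0%, 23.3% and 11.1%. None of the macrophage-marker cells was among them. Both D1Tom cKO libraries stood above both controls, but the cKO 1 share was 1 cell of 6. The controls had 3 of 20 and 3 of 19. The exact permutation test over libraries, two-sided, gave p = 0.333, the smallest that 2 against 2 allows (n = 2). In GTE the groups overlapped, with p = 0.667 by the same exact test. The summed cell cycle list was at 3663, 3322, 2834 and 3507 CPM in the D1Tom microglia and at 4382, 3992, 4229 and 3940 CPM in the other cells. The part of the mixed cells in these shares was not tested. The cells with mitotic genes were deeper than the rest, with median counts of 15295 in D1Tom and 6746 in GTE.

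RNA of other cell types was common in the D1Tom microglia. At least 4 of 6 markers of another cell class were counted in 53 of the 86 cells. The neuron class, which includes the axonal growth gene Gap43 and the tubulin gene Tubb3, was met by 50 cells, or 58.1%, against 69.1% of the other D1Tom cells. The astrocyte class was met by 37 cells, or 43.0%, against 52% of the other cells. The oligodendrocyte precursor class was met by 12 cells, or 13.95%, against 21.1% of the other cells. The endothelial, pericyte, oligodendrocyte and erythroid classes were met by none, against 0.421% to 2.21% of the other cells. Each class was thus met by a smaller share of the D1Tom microglia than of the other cells. The share of the other cells that met any of the classes was not taken. In GTE 8 of 57 microglia met another class, 4 of them neuronal. The neuron class was met by 7.02% of the GTE microglia against 5.65% of the other cells. The precursor class was met by 7.02% against 7.19%, and the astrocyte class by 3.51% against 12.78%.

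These mixed cells were unevenly spread over the D1Tom libraries. Control 1 had 15% mixed cells among its microglia, control 2 had 68.4%, cKO 1 had 83.3% and cKO 2 had 78.0%. Their summed level of the 6 rule genes had a median of 2530 CPM, against 15630 CPM in the 33 cells that met no other class. At least 5000 CPM of the rule genes was reached by 32 of those 33 cells and by 19 of the 53 mixed cells. The 22 macrophage-marker cells split evenly, 11 mixed and 11 not. In GTE the mixed cells had a median of 4242 CPM against 11097 CPM. No doublet caller was run, and the part of doublets or free RNA in these cells was not tested.

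**Figure D3:**
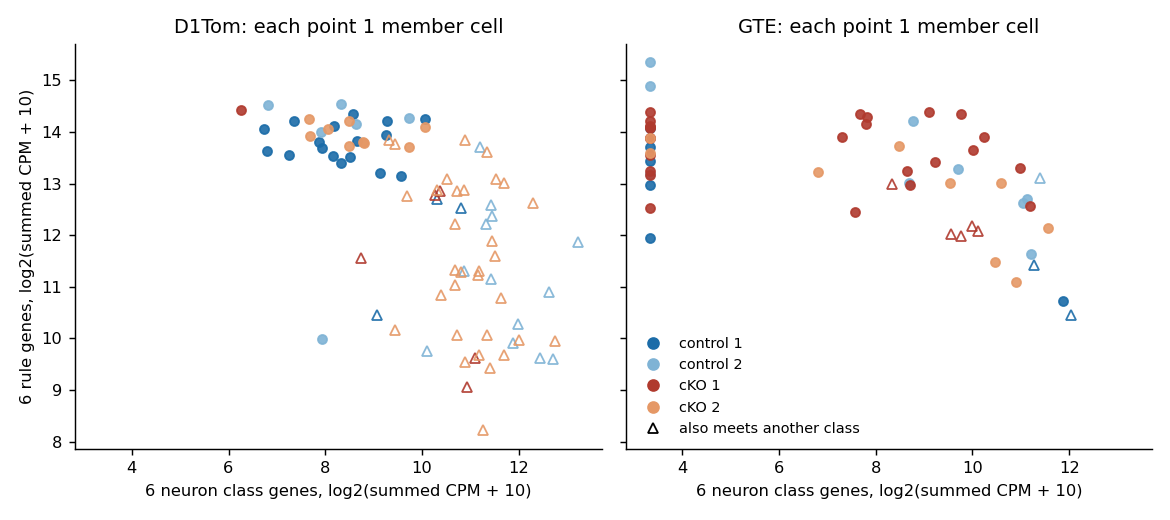
Summed CPM of the 6 neuron class genes (x axis) and of the 6 rule genes (y axis), each as log2 of the value plus 10, in each microglia cell; open triangles are cells that also met another class. In D1Tom 53 of 86 cells are triangles, with a median of 2530 CPM of the rule genes against 15630 CPM in the circles, and in GTE 8 of 57 are.

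Stress and cytokine genes stood apart in a single library. In D1Tom, Fos, an immediate early gene, was at 610, 105, 37.5 and 67.2 CPM. The other cells of these libraries had 539, 53.3, 62.0 and 50.5 CPM, so control 1 was also the highest in the other cells. Jun was at 753, 150, 93.8 and 122 CPM in the microglia and at 239, 64.8, 74.5 and 61.7 CPM in the other cells. Dusp1 was at 296, 21.0, 0 and 21.6 CPM in the microglia. Control 1 was thus the highest library for each of these genes, and control 2 lay near the cKO libraries.

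The chemokine gene Ccl3 was at 729, 35.0, 0 and 91.2 CPM in the D1Tom microglia and under 0.6 CPM in the other cells. Ccl4 was at 385, 0, 0 and 4.80 CPM, and Ccl2 at 559, 52.5, 206 and 115 CPM. Tnf, the cytokine gene, was at 71.6, 10.5, 0 and 7.20 CPM. All 4 were highest in control 1. A single cell held 59.3% of the Ccl4 counts of that library, and 12 of its 20 microglia had a Ccl3 count. Il1b, Il6, Il10 and Cxcl10 were listed at 0 in the D1Tom microglia. In GTE Fos had a count in 2 microglia and Ccl3 in 5. Ccl12, a chemokine of young microglia, was at 671, 199, 216 and 475 CPM in D1Tom and at 526, 956, 621 and 0 CPM in GTE, with a count in 48 and 32 cells. Apoe was at 9455, 2217, 2534 and 4352 CPM in D1Tom, where the other cells had 3627, 1210, 1072 and 1716 CPM. Its log2 fold change of -0.85 for cKO over control became 0.71 without control 1, and that of Ccl3 went from -2.87 to 0.84. Macrophage-marker cells, which were high in Apoe and Ccl2, made up 35%, 21.1%, 16.7% and 24.4% of the D1Tom microglia, and their part in these levels was not tested.

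**Figure D4:**
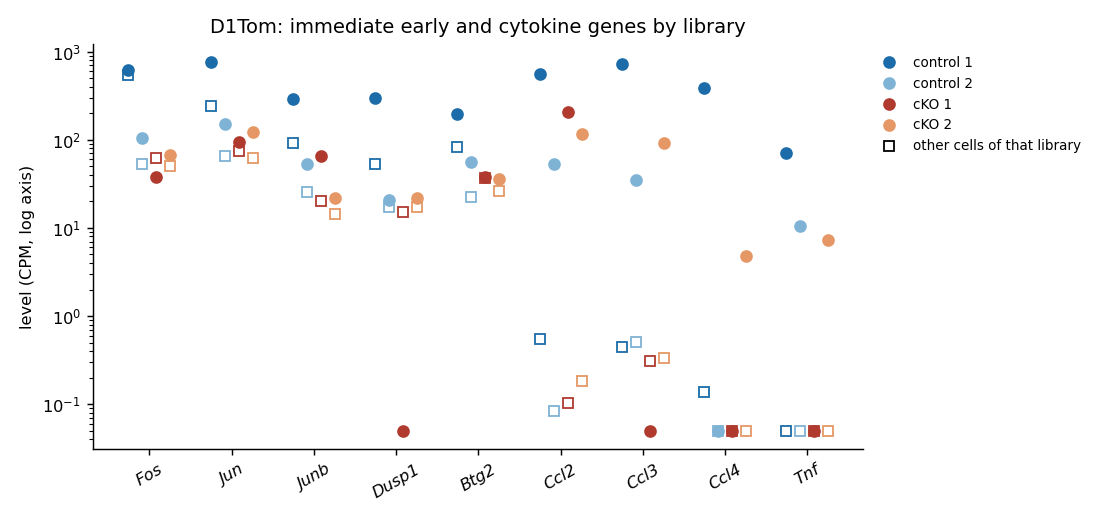
Level in CPM on a log axis of 5 immediate early and 4 cytokine genes in the D1Tom microglia of each library (filled circles) and in its other cells (open squares), with values of 0 drawn at 0.05 CPM. Control 1 is the highest microglial value for all 9 genes, with Fos at 610 CPM there and at 37.5 to 105 CPM in the other 3 libraries.

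The share of cells that met the rule did not separate the genotypes. In D1Tom it was 0.624%, 0.793%, 0.213% and 1.33%, and both controls lay between the cKO libraries. The exact Clopper-Pearson 95% intervals were 0.382 to 0.962%, 0.478 to 1.24%, 0.0783 to 0.464% and 0.957 to 1.80%. The means were 0.709% ± 0.12 and 0.772% ± 0.790 (SD, n = 2 each), with p = 1 by the exact permutation test, two-sided. In GTE the shares were 0.203%, 0.326%, 2.08% and 0.308%, and cKO 1 alone stood out. The intervals were 0.0875 to 0.399%, 0.156 to 0.598%, 1.41 to 2.96% and 0.141 to 0.584%, and the exact test gave p = 0.667 (n = 2 each). The 2 cKO libraries of each sort had intervals that did not overlap, so libraries of a genotype differed by more than counting error. A share within a sort can move with the gate and with the other cells, and neither part was tested. GTE cKO 1 was also the library with the fewest cells, 1440, and the deepest other cells, at a median of 2969 counts against 1084.5 to 1259.5. With cells of at least 1000 counts thinned to 1000, the GTE shares were 0.0911%, 0.219%, 1.61% and 0.368%. The part of depth was not tested.

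**Figure D5:**
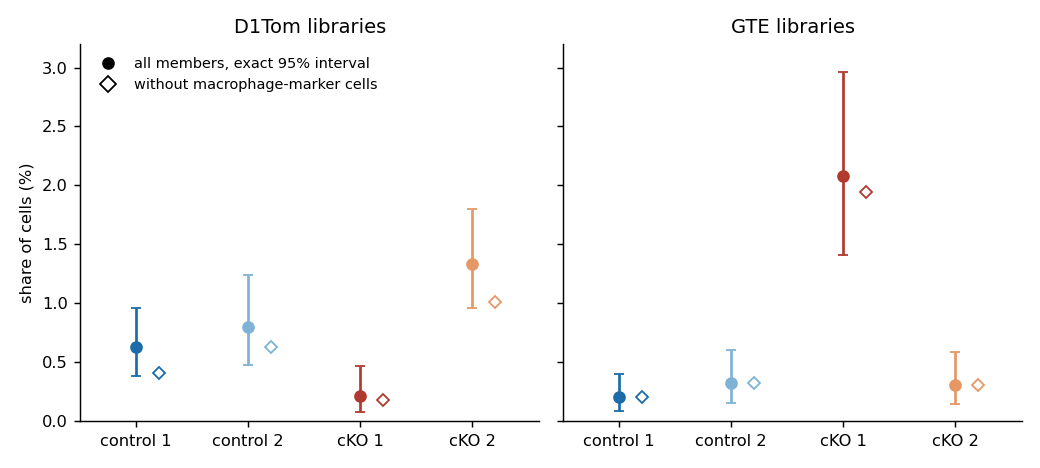
Share of the cells of each library that met the rule, in percent, with exact 95% binomial intervals (filled circles), and without the macrophage-marker cells (open diamonds). The D1Tom shares run from 0.213% to 1.33%, both in cKO libraries, and GTE cKO 1 stands at 2.08% above 0.203% to 0.326% in the other 3.

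Leaving out the macrophage-marker cells gave D1Tom shares of 0.405%, 0.626%, 0.178% and 1.01%, in the same order of libraries. The direction of the mean difference in D1Tom turned with the setting. Without mixed cells the shares were 0.530%, 0.251%, 0.0356% and 0.292%, so that the mean of the cKO libraries was then the lower. The log2 ratio of the cKO mean to the control mean was 0.12 over all microglia, -1.25 without mixed cells and -0.35 after thinning to 1000 counts. It was -1.73 without cKO 2, -0.04 without control 1 and 0.91 without cKO 1. Averaged over the same-numbered pairs, which shared a preparation day, it was -0.40. In GTE it was 2.18 over all libraries, 2.67 after thinning to 1000 counts and 0.22 without cKO 1. Of the microglia, 3 D1Tom cells shared a barcode with a cell of another D1Tom library, and 4 of 143 did so over all 8 libraries.

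The genotype was then tested in the summed counts of the microglia, with edgeR's quasi-likelihood test and Benjamini-Hochberg adjustment over all genes tested. In D1Tom no gene of 5214 passed an adjusted p of 0.05 (percent called 0), while 59 genes, 1.13%, had an unadjusted p under 0.05. In GTE no gene of 619 passed (percent called 0), and 7, also 1.13%, had an unadjusted p under 0.05. DESeq2 called 1 gene in D1Tom and 0 in GTE, with 35 and 0 genes at an unadjusted p under 0.05. On simulated counts of these libraries edgeR recovered 18.8% of 4-fold and 91.8% of 16-fold changes in D1Tom. In GTE it recovered 71.3% of 4-fold and 100% of 16-fold changes among the 619 genes. The simulation gave every gene the same dispersion, 0.194 in D1Tom and 0.172 in GTE, and no counts held by single cells. In GTE 94 and 92 of the 619 genes tested carried the 4-fold and 16-fold changes, a large part, which eases the adjusted threshold. Recovery in the real counts can therefore be lower, and was not tested. Leaving out a library, which assumes that the lone one varies like its partner group, gave 20 calls without D1Tom control 1, 155 without control 2, 3 without cKO 1 and 4 without cKO 2. In GTE it gave 1 call without control 1 (Hn1), 0 without control 2, 1 without cKO 1 (Ccl12) and 2 without cKO 2 (Itm2b and B2m).

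The 5 D1Tom genes with the smallest unadjusted p included Fxyd5, Gpr17, Col4a1 and Mbp, all with an adjusted p of 1.00 by edgeR. Col4a1 was at 3.41, 10.5, 281.5 and 36.0 CPM, a log2 fold change of 4.26 ± 1.11 (SE) for cKO over control. With the shared labelled batch of same-numbered D1Tom libraries as a block, edgeR called 3 genes, among them Col4a1 (adjusted p = 0.0144) and Gpr17 (0.0144). Over the alternatives tried, the adjusted p ran from 0.000562 to 1 for Col4a1 and from 0.000281 to 1 for Gpr17. Gpr17, Col4a1 and Mbp passed the filter on low counts only through the cKO libraries, where they were high. Few cells held the Col4a1 and Gpr17 counts. All 30 Col4a1 counts and all 23 Gpr17 counts of cKO 1 lay in a single cell each. Mbp, myelin basic protein, was at 10.2, 24.5, 235 and 60.0 CPM. Gpr17 and Mbp are oligodendrocyte lineage genes and Col4a1 is a vascular basement membrane gene. Of the D1Tom microglia 12 met the oligodendrocyte precursor class, 1, 4, 1 and 6 by library. They were 13.95% of the microglia, against 21.1% of the other cells, and Gpr17 is among the 6 markers of that class. The part of RNA from other cell types in these values was not tested.

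Fxyd5, a regulator of the sodium pump, was at 75.0, 119, 9.38 and 9.60 CPM, with 94.1% of its control 2 counts in a single cell. Its log2 fold change was -3.30 ± 0.73 (SE), and it passed the filter on low counts only through the controls. In GTE the 5 genes were Timm8b, Krcc1, C1qa, Trem2 and Rab10, all with an adjusted p of 0.998 by edgeR, and C1qa belongs to the rule. Trem2, the lipid-sensing receptor of microglia, was at 175, 239, 450 and 514 CPM, a log2 fold change of 1.33 ± 0.52 (SE). Timm8b, a mitochondrial import chaperone, was at 561, 717, 171 and 267 CPM, and Rab10, a vesicle traffic GTPase, at 175, 34.1, 431 and 350 CPM. Krcc1 was at 140, 68.3, 450 and 329 CPM, from 4 and 2 counts in the controls. Rab10 had 5 and 1 counts there, Trem2 5 and 7, and Timm8b 16 and 21. The groups did not overlap for these 4 genes. Krcc1, Rab10 and Trem2 passed the filter on low counts only through the cKO libraries, where they were high. Their lack of overlap follows in part from that filter and is a description only. Of all 619 GTE genes, 12% lay higher in both cKO libraries than in both controls and 15.3% lower. In D1Tom Trem2 was at 753, 357, 450 and 403 CPM, and the groups overlapped.

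Lists of microglial genes leaned opposite ways in the 2 sorts, without a call in either. Of 20 homeostatic genes tested in D1Tom, 17 were at a lower estimate in cKO and 3 at a higher one, with a median log2 fold change of -0.52. Over all D1Tom genes 2834 were lower and 2380 higher, with a median of -0.05. Both cKO libraries lay below both controls for 4 of the 20, against 12.4% of all genes. Of 26 phagocytic and lysosomal genes 24 were at a lower estimate, with a median of -0.62. Without control 1, the library with the lowest share of mixed cells, the homeostatic list had 10 lower and 10 higher estimates and a median of 0.06. The phagocytic list then had 8 lower and 18 higher, with a median of 0.30. Without mixed cells the medians were -0.13 and 0.02, in a fit without cKO 1, which then held 1 cell. The lean of both lists in D1Tom was thus smaller or reversed in both settings. The part of control 1 and that of the mixed cells cannot be told apart.

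In GTE 10 of 11 homeostatic genes tested were at a higher estimate in cKO, with a median of 0.80 against 0.06 over all 619 genes. Both cKO libraries lay above both controls for 5 of the 11, against 12% of all GTE genes. Without cKO 1 the list had 6 higher and 5 lower, with a median of 0.63. Of 13 phagocytic genes 12 were at a higher estimate with a median of 0.56, and without cKO 1 this was 8 of 13 and 0.11. Only 11 of the 20 homeostatic and 13 of the 31 phagocytic genes passed the filter on low counts in GTE, so these counts describe the genes tested. A gene low in both controls could pass through the cKO libraries alone, as Trem2 did. Without mixed cells the 2 medians were 0.45 and 0.47. Neuron class genes summed to 2138, 1024, 450 and 761 CPM in the GTE microglia. The astrocyte class was at 1262, 1297, 937 and 720 CPM, also lower in both cKO libraries. The oligodendrocyte precursor class was at 105, 102, 804 and 82.3 CPM. Median counts per cell were 2370.5, 3084, 4819 and 4590. The part of such RNA and of depth in these lists was not tested, nor was the difference between the sorts.

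The other lists had no called gene either. Of 9 immediate early genes tested in D1Tom, all 9 were at a lower estimate in cKO with a median of -1.87. Without control 1, the library with the highest Fos, 6 were lower and 3 higher, with a median of -0.36. Of 9 cytokine and chemokine genes 8 were at a lower estimate with a median of -0.80, and without control 1 this was 2 of 10, with a median of 0.78. Of 11 border-associated macrophage genes 8 were at a lower estimate with a median of -0.47, and without control 1 all 11 were at a higher one, with a median of 1.09. Cell cycle genes were at 8 lower and 8 higher estimates with a median of -0.17. All 6 rule genes were at a lower estimate with a median of -0.65, and without control 1 this was 2 of 6, with a median of 0.22. Of the other lists of microglial or myeloid function, each with 3 to 13 genes tested, the medians lay between -1.01 and -0.11, and without control 1 between 0.20 and 1.38.

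Of 10 genes singled out over all cells of the series, 3 were tested in the D1Tom microglia, Sfxn1, mt-Co2 and mt-Atp6, with a median log2 fold change of -1.32 and no call. Foxp2 had a count in 11 of 86 D1Tom microglia, 12.8%, against 12.96% of the other cells, and in 0 of 57 in GTE. A gene the tables name Drd had a count in 15 D1Tom microglia and in 0 in GTE, and Emx1 in 3 and 0. Sfxn1, a mitochondrial serine carrier gene, was at 545, 1105, 263 and 394 CPM in the D1Tom microglia. The other cells of those libraries had 1458, 1298, 732 and 546 CPM. Both cKO libraries lay below both controls, as for 12.4% of all genes tested, with a log2 fold change of -1.32 ± 0.49 (SE) and an adjusted p of 1.00 by edgeR. Without mixed cells the log2 fold change was 0.23, the opposite direction, in a fit that also left out cKO 1, the library with the lowest Sfxn1.

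The mitochondrial gene mt-Co2 was at 64.7, 203, 18.8 and 26.4 CPM in the D1Tom microglia and at 83.7, 241, 8.71 and 32.1 CPM in the other cells. mt-Atp6 was at 647, 273, 1670 and 1231 CPM in the microglia and at 993, 440, 1741 and 1639 CPM in the other cells. mt-Atp8, which overlaps mt-Atp6, was counted in the D1Tom microglia of cKO 2 only, at 149 CPM and in 29 of its 41 cells. In GTE its only counts were 4 in 1 of the 9 cells of cKO 2, or 82.3 CPM. The order of the 4 D1Tom libraries was the same in the microglia and in the other cells for mt-Co2 and for mt-Atp6. Sp8 and Sp9, transcription factor genes of interneurons, had a count in 4 and 2 D1Tom microglia and in 1 each in GTE. Kif20b, a kinesin gene of cell division, had a count in 13 and 3.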

How the data were processed

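Single cells were profiled as Chromium Single Cell 3' v2 libraries, and the authors deposited whole-number counts per gene and cell in 1 table a sort. Per the submitters' processing notes the tools included Cell Ranger 2.1.1, UMI-tools 0.5.4, STAR 2.5.2b and Subread 1.6.2, with the builds mm10 and GRCm38.p6, and filters on cells were not given in the sources used here. Cells were assigned to libraries by the deposited cell tables. Counts of the cells with at least 4 of 6 rule genes were summed per library and tested with edgeR 4.0.16 (R 4.3.3; quasi-likelihood, TMM factors, filterByExpr, Benjamini-Hochberg at 0.05) over all genes of each sort, without a block. DESeq2 1.42.0 was an alternative. The test was tried on simulated counts. Shares were compared by exact permutation over libraries, with Clopper-Pearson 95% intervals.

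The members and lists were chosen with earlier results of these data known. Named were the rule genes, list members counted in at least 1 in 5 cells, the 20 genes with the highest ratio to other cells among those in at least 50% of microglia, the 5 smallest p-values where none passed, and 10 genes singled out over the series. Genes called only under an alternative, and the Apoe, cytokine and macrophage-marker genes, were named after their values were seen. Same-numbered D1Tom libraries shared a labelled preparation day, and their deviations correlated at 0.15 over 5214 genes (log scale, pseudocount 10 CPM). No doublet caller was run. All 353 barcodes found in more than 1 library were kept. Some genes that met the naming rule are not reported here.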

Additional observations from a re-analysis of the deposited data

How the results depend on the processing

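In D1Tom 0 genes were called. DESeq2 called 1, no filter on low counts 11, the replicate block 3, leaving out mixed cells 7 (cKO 1 then held too few cells and was left out), and the block without macrophage-marker cells 1. Leaving out 1 library gave 3 to 155 calls. RLE factors, both other membership minimums and leaving out macrophage-marker cells without the block gave 0. In GTE leaving out 1 library gave 0 to 2 calls and every other setting run 0, the block included. The minimum of 5 rule genes left out GTE control 1.

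The D1Tom log2 ratio of shares, 0.12, turned to -0.35 after thinning, -1.25 without mixed cells and -0.40 with the pairing of same-numbered libraries, and ran from -1.73 to 0.91 with 1 library left out. In GTE it stayed above 0 in all settings run. Sfxn1 turned to 0.23 and Apoe to 0.65 without mixed cells, in the fit that also left out cKO 1. With 1 library left out Ccl3 ran from -9.56 to 0.84, Apoe from -1.50 to 0.71, Hn1 in GTE from -0.054 to 8.49 and B2m from -0.64 to 1.51. The cause was not tested.

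GTE libraries share only a number: the labels' batch text matches the D1Tom libraries, and same-numbered deviations correlated at -0.226 over 619 genes. Settings with macrophage-marker cells left out were chosen after seeing the data. Depth limits the GTE fit to 619 genes, against 5214 in D1Tom.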

Other observations

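Retnla, which encodes a secreted protein of alternatively activated macrophages, had 390 counts in the D1Tom microglia of cKO 2, all in 1 cell, and none in the microglia of the other D1Tom libraries.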
